A study of Mus musculus with 36 samples.

Results

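Mouse duodenal organoids given DAPT in pulses with a period of 90 min for 24 h were compared with organoids held in a DMSO control for 24 h. The comparison rests on 6 of the 36 libraries of the series, 3 after 90 min pulses and 3 in DMSO, chosen by the treatment and duration in their labels. Organoids are cultures grown from intestinal crypts, here duodenal crypts of C57BL/6 mice of either sex, the females virgin, aged over 8 weeks, and both groups were passaged 3 days before the experiment, loaded into a microfluidic chip under flow and harvested as 20 to 50 organoids per sample. No sorting for a cell type was done in either group. DAPT, an inhibitor of gamma-secretase, was used at 1.38 µM for the 90 min period. Whether DMSO was also given in pulses is not stated, so the drug and the pulsing cannot be told apart. Nor is it stated that replicates were separate cultures or mice, and the p-values then reflect only the variation among these libraries, which may be technical. The other 30 libraries held pulses of 130 or 170 min, or the durations of 48 and 72 h. Groups of 48 h were passaged 2 days before the experiment and those of 72 h 1 day before. The comparison asks whether the mixture of cell types changes slightly when the rhythm of Notch signalling is set from outside.

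Notch receptors are activated by Delta and Jagged ligands on neighbouring cells, and gamma-secretase then releases the receptor's intracellular part, which joins the DNA-binding protein Rbpj and switches on genes such as Hes1. Hes1 is a repressor that also acts on its own gene, which allows its level to rise and fall in cycles. In the intestinal crypt, Notch activity keeps progenitors out of the secretory fate by holding down Atoh1, and loss of Notch activity turns progenitors into goblet and other secretory cells.

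The libraries differed in size. Total counts were 1099147, 769243 and 1330171 in 90 min replicates 1, 2 and 3, against 482741, 802900 and 807127 in the DMSO replicates. The smallest 90 min library lay below DMSO replicates 2 and 3, so the groups overlapped, and DMSO replicate 1 was the smallest of all 36 libraries. The mean total was 1066190 (SD 281913) after 90 min pulses and 697589 (SD 186076) in DMSO, a ratio of 1.53, with a two-sided exact permutation p of 0.3 where 3 against 3 cannot go below 0.1. The same ratio was 1.18 at 48 h and 1.07 at 72 h. The 100 genes with the most counts took 6.402, 6.80 and 5.90% of the counts after 90 min pulses and 7.79, 6.92 and 7.07% in DMSO, and the groups did not overlap (two-sided exact permutation p = 0.1, the smallest possible). Genes with at least 1 count averaged 17246 after 90 min pulses and 15145 in DMSO, and 15076 against 14299.7 once every library was thinned to 482741 counts.

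No gene passed. Of 11462 genes with enough counts to be tested, 0 (0%) differed between 90 min pulses and DMSO at an adjusted p under 0.05 (edgeR quasi-likelihood test with Benjamini-Hochberg adjustment), and the smallest adjusted p was 0.453. At an unadjusted p under 0.05 there were 1111 genes (9.69%), of which 409 (3.57%) had higher values and 702 (6.12%) lower values after 90 min pulses. In 741 genes (6.46%) all 3 libraries given 90 min pulses lay above all 3 DMSO libraries, and in 700 genes (6.11%) all lay below. DESeq2 called 1 gene, lower after 90 min pulses, and limma voom called 0, with 898 and 990 genes at an unadjusted p under 0.05.

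Taking the replicate number as a pair gave a different count. Fitted on the 6 libraries alone, the model with pairs called 14 of 10025 genes (0.14%), 4 higher (0.0399%) and 10 lower (0.0998%) after 90 min pulses, with 913 (9.11%) at an unadjusted p under 0.05, while the same 6 libraries without pairs gave 0 calls and 499 genes at an unadjusted p under 0.05. The model with pairs has 2 residual degrees of freedom. Its tests lean on a spread pooled over all genes. With all 36 libraries and pairs within each duration, which leaves 18 residual degrees of freedom, 0 genes were called and 1199 (10.5%) had an unadjusted p under 0.05.

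The direction of a gene's difference went with its abundance. Genes were ordered by their mean CPM (molecule counts scaled to a common library size, not divided by transcript length) over the 36 libraries and split into 10 groups of equal size, the deciles. In the lowest decile, below 10.6 CPM, the median log2 change was 0.34 and 27.8% of genes had lower values after 90 min pulses. In the highest decile, above 189 CPM, the median was -0.24 and 98.3% of the 1147 genes had lower values. That decile held 379 of the 702 lower genes at an unadjusted p under 0.05 and 0 of the 409 higher ones. Over all tested genes the median was 0.03 and 6180 (53.9%) had higher values after 90 min pulses, the background for the counts of list members below. For members at an unadjusted p under 0.05 the background is 3.57% higher and 6.12% lower. For groups that do not overlap it is 6.46% above and 6.11% below.

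The gradient was smaller at the later durations and with log2 total in the model. At 48 h, the medians of the lowest and highest decile were 0.08 and -0.08, and at 72 h they were 0.14 and -0.04. With log2 of the library total in the model they were 0.06 and -0.05, and the genes at an unadjusted p under 0.05 numbered 313 (2.73%), 180 higher (1.57%) and 133 lower (1.16%) after 90 min pulses. Of the 1111 genes, 1108 (99.7%) kept their sign in that model and 194 (17.5%) kept an unadjusted p under 0.05. Among the 3 libraries with like totals, 90 min replicate 2 against DMSO replicates 2 and 3, the medians were -0.11 and -0.02. Replicate number is not balanced in that contrast, as DMSO replicate 3 enters without 90 min replicate 3. Chga, Lyz1 and Olfm4, for example, were lowest in replicate 2 of both groups. Treatment and replicate number cannot be fully told apart there. The lone 90 min library is assumed there to vary like the other groups.

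Single libraries set the counts. Without DMSO replicate 1 the counts at an unadjusted p under 0.05 were 346 higher and 188 lower after 90 min pulses, and the median of the highest decile was -0.15. Without 90 min replicate 3 they were 257 and 254, and the median of the lowest decile was 0.16. Without 90 min replicate 2 they were 556 and 1128. Scaling also moved the split: with library totals alone in place of the trimmed mean of M values (TMM), 709 genes were higher and 281 lower, with upper quartile factors 683 and 312, and the median of all genes was 0.12 in both. Changes below are on the TMM scale.

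**Figure D1:**
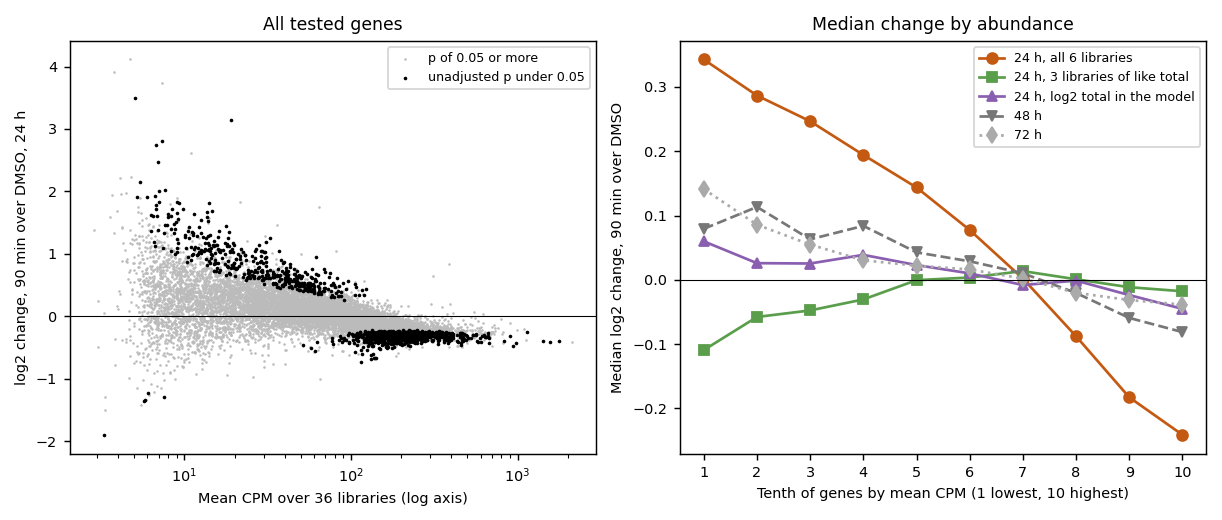
Left, log2 change of 90 min pulses over DMSO at 24 h (y axis) against mean CPM over 36 libraries (x axis, log scale), 1 point per tested gene, black where the unadjusted p is under 0.05. Right, median log2 change (y axis) in each decile of genes by mean CPM (x axis) for 5 fits; the line for all 6 libraries runs from 0.34 in the lowest decile to -0.24 in the highest, and the other 4 stay between -0.11 and 0.14.

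Library size was also set against expression in libraries outside the comparison. In the 30 other libraries, each gene's change per doubling of the total was estimated within groups. Its median was 0.45 in the lowest decile of genes and -0.30 in the highest. Of the 702 genes lower at an unadjusted p under 0.05 after 90 min pulses, 95.7% had a negative slope on the total. Of the 409 higher at that threshold 82.9% had a positive one, beside 40.96% negative slopes among all genes. Over all tested genes 70.4% had the same sign of change and slope. Across the 11462 genes, which are not independent replicates, Pearson's r between the change at 24 h and the slope was 0.35 and Spearman's coefficient 0.46. The 2 quantities come from different libraries but share the assay and the genes' abundance. The mean log2 total was 0.62 higher after 90 min pulses than in DMSO. How much of a single gene's difference belongs to library size was not tested beyond these values.

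**Figure D2:**
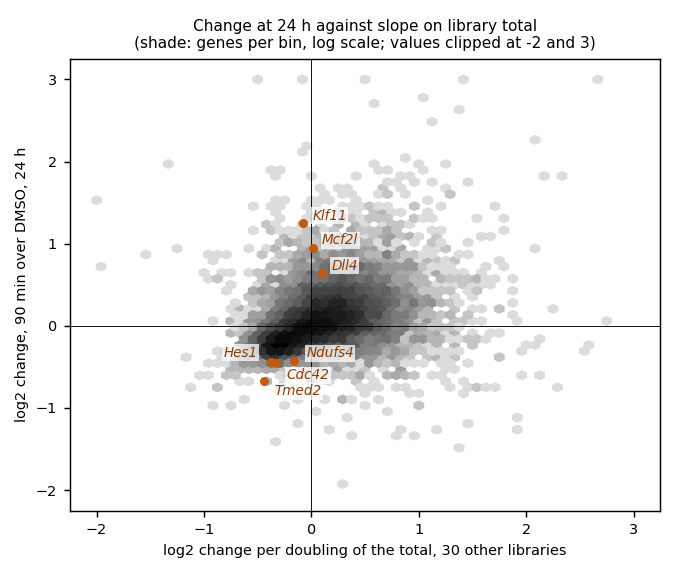
Each tested gene's log2 change at 24 h, 90 min over DMSO (y axis), against its log2 change per doubling of the library total in the 30 other libraries (x axis); darker bins hold more genes and orange points are named genes. Pearson's r over all points is 0.35; Hes1, Cdc42 and Tmed2 sit at negative slopes of -0.38, -0.33 and -0.44, and Klf11, Mcf2l and Dll4 sit near a slope of 0.

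The 10 higher genes with the smallest p-values had similar values with log2 total in the model, and some were smaller in the libraries of like total. They had adjusted p-values of 0.453 or 0.458 in edgeR's test, so none passed. These genes, and others below named for small p-values, were picked in the same libraries. Groups that do not overlap are therefore no added support for them. Klf11, a zinc finger transcription factor induced by TGF-beta, had 32.5, 28.4 and 36.2 CPM after 90 min pulses, against 16.2, 5.19 and 20.5 CPM in DMSO. The groups did not overlap, and the lowest value by far was DMSO replicate 2. Its log2 change was 1.25 (SE 0.31) and 1.27 with log2 total in the model, and 1.122 in the libraries of like total. Mcf2l, a guanine nucleotide exchange factor, had 61.4, 88.0 and 81.7 CPM after 90 min pulses, against 34.7, 44.1 and 38.4 CPM in DMSO, with a change of 0.95 (SE 0.23) that stood at 0.95 with log2 total. Every 90 min library was above every DMSO library, and Mcf2l was also among the 14 calls of the paired model.

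Usp21, a deubiquitinating enzyme, had 105, 104 and 81.7 CPM after 90 min pulses, against 64.7, 61.0 and 62.8 CPM in DMSO, where the 3 replicates lay close together. Its change of 0.62 (SE 0.15) was 0.65 with log2 total. Mkrn2, a RING finger ubiquitin ligase, had 42.4, 39.3 and 43.4 CPM after 90 min pulses, against 23.1, 22.1 and 16.7 CPM in DMSO, a change of 1.04 (SE 0.26) and 0.97 with log2 total. Both had tight groups that did not overlap. Lztr1, an adaptor that brings RAS proteins to a ubiquitin ligase, stood at 0.67 (SE 0.18), and Gm44985, which has no known role, at 0.51 (SE 0.12). The other 4 were Kansl2, a subunit of a histone acetyltransferase complex (1.68, SE 0.45), Dnajc18, a co-chaperone (1.05, SE 0.29), Slc27a1, a fatty acid transporter (1.07, SE 0.30), and Zfp46, a zinc finger gene (0.89, SE 0.25). Kansl2 was sparse, with 1.28 to 9.08 CPM in DMSO, and Zfp46 was the 1 gene of the 10 whose groups overlapped. With log2 total in the model the 10 changes ran from 0.58 for Gm44985 to 1.55 for Kansl2. In the libraries of like total, Zfp46 stood at 0.34, Slc27a1 at 0.50, Dnajc18 at 0.70 and Kansl2 at 1.21, while Usp21, Mkrn2, Lztr1, Gm44985 and Mcf2l stood at 0.74, 1.00, 0.63, 0.69 and 1.08.

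The 10 lower genes with the smallest p-values were abundant genes, and all 10 moved nearer to 0 when the total was taken into account. Cdc42, a small GTPase that sets cell polarity and the actin cytoskeleton, had 388, 448 and 378 CPM after 90 min pulses, against 640.4, 527 and 497 CPM in DMSO. The highest value was in DMSO replicate 1, the smallest library, and the groups did not overlap. Its change was -0.45 (SE 0.11, adjusted p = 0.456 in edgeR), -0.23 with log2 total and -0.20 in the libraries of like total. Cdc42 was the 1 gene that DESeq2 called.

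Adss, an enzyme of purine nucleotide synthesis, had 189, 188 and 192 CPM after 90 min pulses, against 279.7, 256 and 243 CPM in DMSO. The 90 min replicates were nearly equal and all lay below DMSO. Its change of -0.44 (SE 0.10) was -0.35 with log2 total and -0.42 in the libraries of like total, the least moved of the 10. Tmed2, a cargo receptor of the early secretory pathway, had 92.1, 153 and 111 CPM after 90 min pulses, against 222, 158 and 186 CPM in DMSO, a change of -0.67 (SE 0.16) that was -0.38 with log2 total. In replicate 2 the 2 groups nearly met. Of the remaining 7, Ndufs4 and Ndufa9 are subunits of respiratory complex I (-0.43 and -0.42), Dld is a subunit shared by mitochondrial dehydrogenase complexes (-0.42), Cops9 belongs to the COP9 signalosome (-0.48) and Rpl6 to the large ribosomal subunit (-0.54). B020010K11Rik and 0610012G03Rik, which have no known role, stood at -0.67 and -0.41. With log2 total these 7 ran from -0.27 for Dld to -0.36 for B020010K11Rik. Rpl6 has near-identical copies in the genome, so its count is uncertain.

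**Figure D3:**
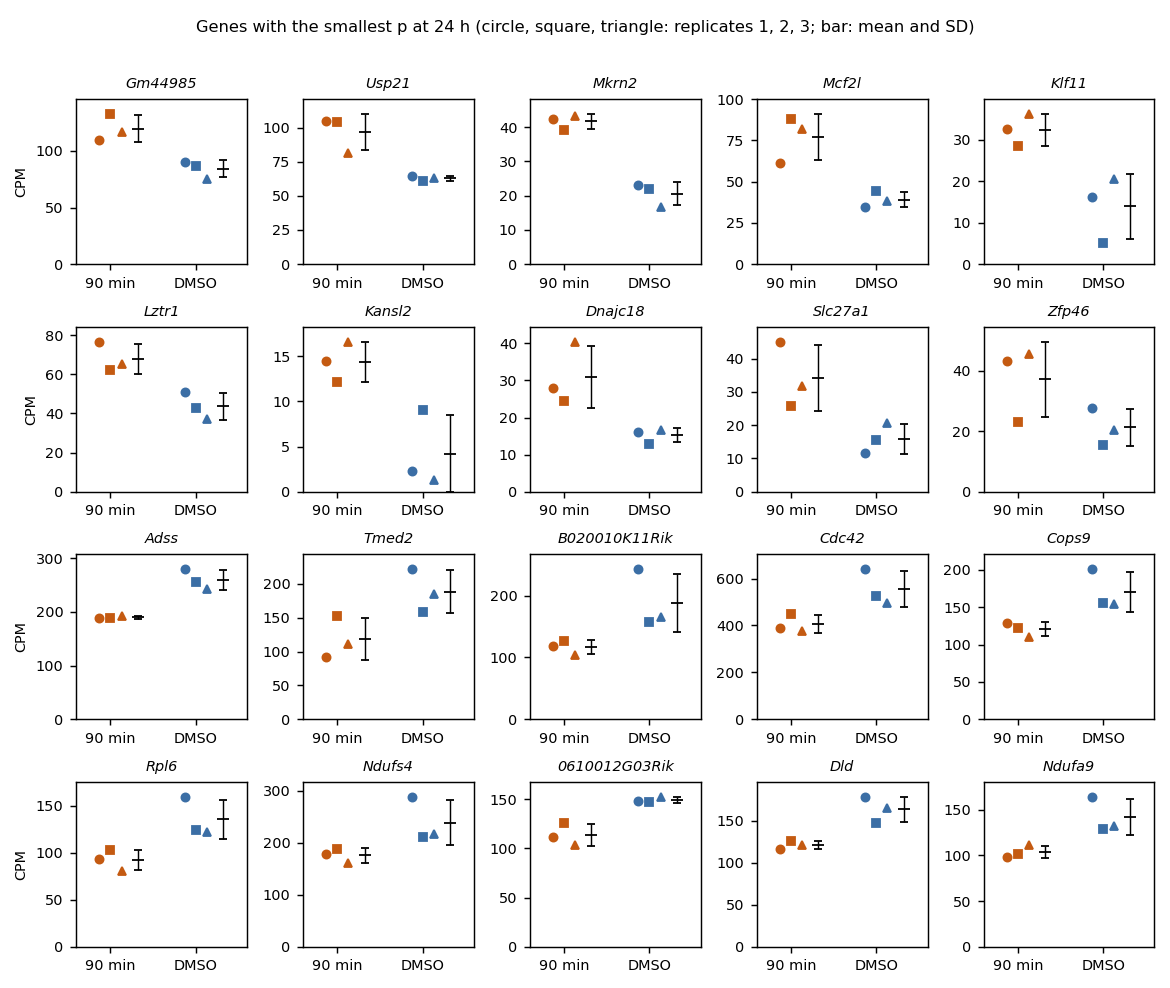
CPM (y axis, from 0) in each library for the 10 higher (upper 2 rows) and 10 lower genes (lower 2 rows) with the smallest p-values at 24 h, 90 min replicates left and DMSO replicates right, with the mean and SD beside them. In 19 of the 20 genes the groups do not overlap, and DMSO replicate 1 is the highest library for 9 of the 10 lower genes. The genes were picked for small p-values in these same libraries, so groups that lie apart are no added support.

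The 14 genes called in the paired model were mixed in kind, and none was called without pairs. The largest change was that of Rps26-ps1, a processed copy of a ribosomal protein gene, with 14, 33 and 56 counts after 90 min pulses, against 2, 3 and 2 counts in DMSO. Its paired change was 3.26 (SE 0.51, adjusted p = 2.26e-06, edgeR). Such a copy can take reads from its parent gene, so the count is uncertain, and the same holds for Gpx4-ps2 and Rpl17-ps3, which were lower. The other higher genes were Gm10717, which has no known role (1.07, SE 0.19), Mcf2l (1.00, SE 0.21) and Habp2, a secreted serine protease listed among the Paneth cell genes (0.60, SE 0.15).

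The lower genes held the glycolytic enzyme Pgk1 at 121, 119 and 109 CPM (scaled over the 6 libraries) after 90 min pulses, against 257, 171 and 120.2 CPM in DMSO, with a paired change of -0.59 (SE 0.15). All 3 pairs were lower, most of all the first. Defa17, an antimicrobial defensin of Paneth cells and a member of a family of near-identical genes, had 113, 123 and 105 CPM after 90 min pulses, against 259.6, 152 and 144 CPM in DMSO. Its paired change was -0.66 (SE 0.15). Ptma, an acidic nuclear protein, stood at -0.59 and Tmed2 at -0.66. In the 36 library model without pairs but with log2 total, Pgk1 was at -0.38, Defa17 at -0.41, Ptma at -0.061 and Gm10717 at 0.61. The remaining lower calls were B020010K11Rik, Gm11539, Gm4997 and Tstd1. In the 36 library model without pairs these 14 genes had adjusted p-values of 0.453 to 0.908, Tstd1 the highest.

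Among Notch ligands, the 4 tested members all had higher values after 90 min pulses. The median log2 change was 0.30, beside 0.03 for all tested genes, and 1 of 4 had an unadjusted p under 0.05. Dll4, a Delta ligand displayed by early secretory cells, had 64.1, 48.7 and 66.6 CPM after 90 min pulses, against 48.5, 33.7 and 37.2 CPM in DMSO. The lowest 90 min library was just above the highest DMSO library, and within each replicate number the 90 min value was higher. The change was 0.64 (SE 0.25, adjusted p = 0.458 in edgeR), and 0.58 with log2 total, where the slope on the total was 0.10. In other libraries the change was 0.80 at 48 h and 0.18 at 72 h.

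Dll1, the other Delta ligand of secretory progenitors, had 67.7, 62.3 and 62.9 CPM after 90 min pulses, against 39.3, 55.8 and 52.5 CPM in DMSO. The groups did not overlap, and the lowest value was in DMSO replicate 1. The change was 0.36 (SE 0.22), 0.32 with log2 total, 0.36 at 48 h and 0.03 at 72 h. The Jagged ligands Jag2 and Jag1 stood at 0.23 (SE 0.32) and 0.01 (SE 0.27), with overlapping groups, and at 0.31 and -0.088 with log2 total. Dll3 had at most 9 counts in any of the 6 libraries and was not tested.

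Of 15 listed Notch receptors and modifiers 9 were tested, 6 with higher and 3 with lower values and a median of 0.08. Notch2 averaged 109 CPM after 90 min pulses and 112 CPM in DMSO, a change of -0.06 (SE 0.18). Notch1, the main receptor of crypt progenitors, was too sparse to test, with 6, 3 and 8 counts after 90 min pulses, against 3, 5 and 3 counts in DMSO. Notch3 had 5.42, 13.5 and 13.02 CPM after 90 min pulses, against 6.94, 3.89 and 1.28 CPM in DMSO, with overlapping groups and a change of 1.51 (SE 0.67) on few molecules. Pofut1, the enzyme that adds fucose to Notch receptors, had 47.8, 54.2 and 51.4 CPM after 90 min pulses, against 37.0, 35.0 and 37.2 CPM in DMSO. These groups were tight and apart, and the change of 0.49 (SE 0.20) was 0.48 with log2 total, -0.07 at 48 h and -0.09 at 72 h.

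The machinery that cuts Notch receptors showed no common direction, with 3 of 8 tested members higher, 5 lower and a median of -0.06 that was 0.04 with library totals alone. Adam10, the protease of the first cut after ligand binding, had 216, 289.7 and 197 CPM after 90 min pulses, against 284, 305 and 275 CPM in DMSO. The groups overlapped through 90 min replicate 2, and the change was -0.32 (SE 0.12), or -0.16 with log2 total. Psen2, a catalytic subunit of gamma-secretase and so part of the enzyme that DAPT blocks, had 60.5, 75.8 and 68.7 CPM after 90 min pulses, against 57.8, 58.4 and 39.7 CPM in DMSO. The change was 0.40 (SE 0.19) and 0.38 with log2 total, with groups that did not overlap.

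Hes1, the target most directly tied to Notch activity, had 274, 292 and 272 CPM after 90 min pulses, against 444, 292 and 409 CPM in DMSO. The 90 min replicates lay close together. DMSO replicate 2 was at their level and the other DMSO libraries were far above, so the groups touched. The change was -0.44 (SE 0.13, unadjusted p = 0.00225, adjusted p = 0.458, edgeR). Hes1 was abundant and had a negative slope on the total of -0.38, and its change was -0.21 (SE 0.11) with log2 total and -0.27 (SE 0.20) in the libraries of like total.

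At the other durations Hes1 stood at -0.16 (48 h) and -0.04 (72 h), and the test of the difference between 24 h and the mean of the later durations gave -0.34 (SE 0.16, unadjusted p = 0.0436, adjusted p = 1.00, edgeR). Genes of the Notch transcription complex and its targets, Hes1 included, had a median of 0.05 over 11 tested members, with 7 higher and 4 lower. With log2 total the median was 0.09 with 8 higher, and with library totals alone 0.15 with 9 higher. In the libraries of like total it was -0.07 with 5 higher. Rbpj, the DNA-binding partner of Notch, stood at 0.21 (SE 0.17) and Maml3, a coactivator, at 0.84 (SE 0.41), with groups that overlapped in both. With log2 total they were at 0.088 and 0.66. Of 7 listed members not tested, Hey1, Hey2, Heyl and Dtx1 had 0 counts in all 6 libraries and Hes5, Hes7 and Nrarp had at most 6.

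**Figure D4:**
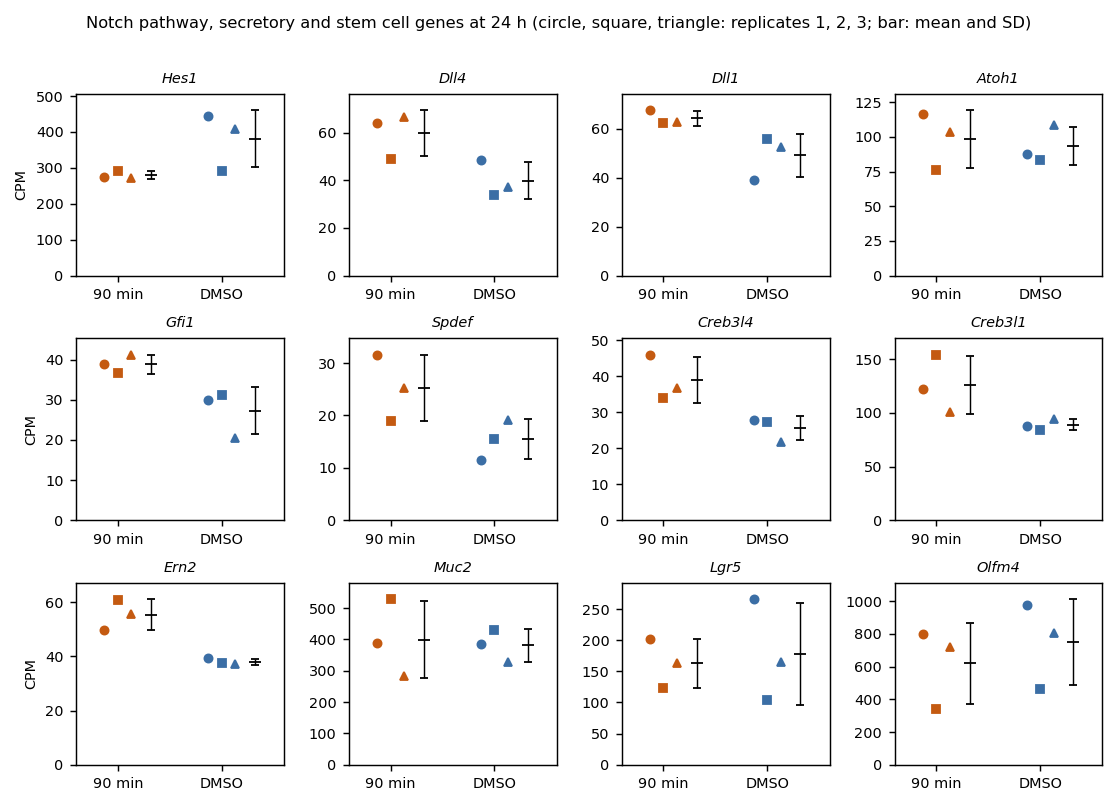
CPM (y axis, from 0) in each of the 3 libraries after 90 min pulses (left) and in DMSO (right) for 12 genes of the Notch pathway, secretory lineage and crypt stem cells, with mean and SD. Dll4, Dll1, Gfi1, Creb3l4, Creb3l1 and Ern2 show 90 min libraries above all DMSO libraries, Hes1 shows 3 even 90 min values below or level with DMSO, and Atoh1, Spdef, Muc2, Lgr5 and Olfm4 overlap.

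Transcription factors of the secretory lineage had a median log2 change of 0.51, with 14 of 18 tested members higher and 4 lower, and 2 with an unadjusted p under 0.05, both higher. The median was 0.21 with log2 total in the model, -0.11 in the libraries of like total, and 0.19, 0.29 and 0.34 without 90 min replicate 3, 90 min replicate 1 and DMSO replicate 2. In bulk samples, more cells of a type and more RNA per cell cannot be told apart. Atoh1, the factor that commits progenitors to the secretory fate, had 116, 75.8 and 103 CPM after 90 min pulses, against 87.8, 83.1 and 109 CPM in DMSO. The groups overlapped fully, and the change was 0.09 (SE 0.22), -0.080 with log2 total and -0.35 in the libraries of like total. Of the lineage factors that act after it, Gfi1 stood at 0.53 (SE 0.33), with 38.8, 36.6 and 41.2 CPM after 90 min pulses against 30.1, 31.1 and 20.5 CPM in DMSO, and Spdef, a factor of goblet and Paneth maturation, at 0.68 (SE 0.35) with groups that overlapped. With log2 total Gfi1 was at 0.24 and Spdef at 0.37, and in the libraries of like total at 0.49 and 0.11.

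Creb3l1 and Creb3l4, membrane-bound factors that expand the secretory apparatus, had the smallest p-values of the list. Creb3l1 had 123, 154 and 101 CPM after 90 min pulses, against 87.8, 84.4 and 94.8 CPM in DMSO. All 90 min libraries were above all DMSO libraries, most in replicate 2. Its change was 0.47 (SE 0.18), and since it falls with the total in other libraries (slope -0.35), the value with log2 total was larger, 0.68 (SE 0.18, unadjusted p = 5.52e-04, adjusted p = 1.00, edgeR), and 0.77 in the libraries of like total. Creb3l4 had 46.0, 33.8 and 36.9 CPM after 90 min pulses, against 27.7, 27.2 and 21.8 CPM in DMSO, again apart. Its change was 0.62 (SE 0.23), or 0.45 with log2 total, and it was 0.45 at 48 h and 0.13 at 72 h.

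Genes of goblet cells, which secrete mucus, had a median of 0.17, with 19 of 29 members higher and 10 lower, and 3 with an unadjusted p under 0.05, all higher. The median was 0.22 with log2 total, 0.32 in the libraries of like total, 0.29 at 48 h and 0.17 at 72 h. It was 0.26 without 90 min replicate 3, 0.09 without DMSO replicate 1, 0.07 without DMSO replicate 3 and 0.03 without 90 min replicate 2, the highest library for Muc2. Creb3l4 was also in this list. Ern2, the stress sensor of mucous cells, had 49.6, 60.9 and 55.7 CPM after 90 min pulses, against 39.3, 37.6 and 37.2 CPM in DMSO. The groups were apart, with the DMSO replicates close together, and the change was 0.54 (SE 0.22), or 0.51 with log2 total. The last of the 3 was Kdelr3, a receptor that returns proteins to the endoplasmic reticulum (0.64, SE 0.28). The main secreted products showed no difference beyond their spread. Muc2, the gel-forming mucin, had 387, 528 and 283 CPM after 90 min pulses, against 384, 431 and 328 CPM in DMSO, a change of 0.06 (SE 0.25). Tff3, a trefoil peptide, stood at -0.05 (SE 0.20). With log2 total Muc2 was at 0.37 and Tff3 at 0.077, and in the libraries of like total at 0.46 and 0.30. Both had wide and overlapping groups, highest in replicate 2 of each.

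Paneth cell genes had no common direction in the main fit, with 10 of 19 tested members higher, 9 lower and a median of 0.02. The median ranged from -0.05 without DMSO replicate 3 to 0.20 without DMSO replicate 1, where 17 of 20 were higher. With log2 total it was 0.14 with 15 of 19 higher, and with library totals alone 0.13 with 16 higher. In the libraries of like total it was -0.04, with 9 of 21 higher and 11 lower. Lyz1, the lysozyme gene, had 684, 321 and 638 CPM after 90 min pulses, against 844, 443 and 692 CPM in DMSO. Replicate 2 was the lowest in both groups, and the change was -0.25 (SE 0.62), -0.063 with log2 total and -0.83 in the libraries of like total. Wnt3, a niche signal made by Paneth cells, had 31.6, 35.2 and 25.3 CPM after 90 min pulses, against 20.8, 14.3 and 15.4 CPM in DMSO. Its groups did not overlap and the change was 0.89 (SE 0.31), or 0.94 with log2 total. Tifa, an adaptor of innate immune signalling, stood at 1.18 (SE 0.41), with 43.3, 18.9 and 49.2 CPM after 90 min pulses and 20.8, 12.98 and 17.9 CPM in DMSO, where the groups overlapped through 90 min replicate 2. In the libraries of like total Tifa stood at 0.28.

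Enteroendocrine cell genes, which mark hormone cells, had higher values in 16 of 20 tested members and a median of 0.30, with 0 at an unadjusted p under 0.05. The median was -0.05 with log2 total and -1.51 in the libraries of like total, and it was -0.14 without 90 min replicate 3, -0.10 without DMSO replicate 2, 0.48 without DMSO replicate 1, 0.64 without 90 min replicate 2 and 0.68 without DMSO replicate 3. Chga, a granule protein of these cells, had 70.4, 12.2 and 111 CPM after 90 min pulses, against 74.0, 16.9 and 84.6 CPM in DMSO. Replicate 2 was far below the others in both groups, and the spread within a group exceeded the difference between groups. Tuft cell genes, markers of chemosensory cells, had a median of 0.65 with 9 of 11 higher, -0.0012 with log2 total and 0.38 without 90 min replicate 3. Trpm5, the ion channel of tuft cell signalling, had 12.6, 9.48 and 11.6 CPM after 90 min pulses, against 2.31, 1.30 and 6.41 CPM in DMSO, a change of 1.66 (SE 0.79) on at most 16 counts in a library. Values of sparse genes such as these lay in the deciles whose medians were above 0.

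Crypt stem cell and Wnt target genes split about evenly in the main fit, with 14 of 26 tested members higher, 12 lower and a median of 0.02. In that fit 0 had an unadjusted p under 0.05. The median lay between -0.09 and 0.08 with any 1 of the 6 libraries left out. The split moved with the setting. With log2 total 19 of 26 were higher and the median was 0.11. Without DMSO replicate 1 19 were higher, without 90 min replicate 3 11, and in the libraries of like total 14. Lgr5, the receptor that marks crypt base stem cells, had 201, 123 and 164 CPM after 90 min pulses, against 266, 104 and 165 CPM in DMSO. The order of the replicates was the same in both groups and the ranges overlapped, with a change of -0.05 (SE 0.30), or 0.17 with log2 total. Ascl2, the transcription factor of these cells, stood at 0.03 (SE 0.16), or 0.13 with log2 total. Olfm4, a secreted stem cell marker that Notch controls, had 801, 339.8 and 721 CPM after 90 min pulses, against 978, 463 and 807 CPM in DMSO. It was lower in each replicate number, by less than the spread within a group (-0.25, SE 0.56), and stood at 0.089 with log2 total and -0.92 in the libraries of like total.

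Genes of dividing cells mostly had lower values. In the list of G2 and M phase genes 25 of 34 members were lower after 90 min pulses, with a median of -0.15. At an unadjusted p under 0.05 there were 6 lower members, beside 6.12% of all tested genes. By abundance, 218 of the 1146 genes in decile 9 were lower at that threshold, and 379 of the 1147 in the highest decile. Cdk1, the kinase that drives entry into mitosis, had 319, 328 and 309 CPM after 90 min pulses, against 534, 376 and 372 CPM in DMSO. DMSO replicate 1 stood far above the rest, and the groups did not overlap. Its change of -0.41 (SE 0.13) was -0.18 with log2 total. Mki67, a proliferation marker, stood at -0.21 (SE 0.13), or -0.073 with log2 total. The list median was -0.06 with log2 total, where 1 lower member had an unadjusted p under 0.05. It was -0.05 without DMSO replicate 1, where 0 had. Without 90 min replicate 3 it was -0.15 with 27 of 34 lower, 5 of them at that threshold. S phase genes had a median of -0.08, with 19 of 30 lower, -0.03 with log2 total and 0.02 with library totals alone. In the libraries of like total the S phase median was -0.16, with 23 of 30 lower, and the G2 and M phase median -0.04.

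Enterocyte genes, which mark absorptive cells, had lower values in 27 of 32 tested members and a median of -0.33, yet 0 had an unadjusted p under 0.05. The median was -0.15 with log2 total, -0.45 in the libraries of like total, -0.46 without DMSO replicate 1, -0.20 without 90 min replicate 3, 0.05 at 48 h and -0.07 at 72 h. Mgam, a starch-digesting enzyme of the brush border, had 227, 246 and 154 CPM after 90 min pulses, against 266, 302 and 298 CPM in DMSO. The groups did not overlap, and the change was -0.49 (SE 0.26). Mttp, which loads lipid onto apolipoprotein B, had 224, 232 and 186 CPM after 90 min pulses, against 291, 297 and 329 CPM in DMSO, also apart (-0.53, SE 0.33). Alpi, the intestinal alkaline phosphatase, had 537, 677 and 513 CPM after 90 min pulses, against 739.8, 689 and 801 CPM in DMSO (-0.37, SE 0.24). These 3 were the only members of the 32 with every 90 min library below every DMSO library, beside 6.11% of all tested genes. The list's mean log2 CPM overlapped, at 7.27, 6.97 and 6.77 after 90 min pulses against 6.67, 7.40 and 7.51 in DMSO. In replicate 1 it was higher after 90 min pulses. With log2 total Mgam, Mttp and Alpi were at -0.18, -0.28 and -0.13, and in the libraries of like total at -0.30, -0.45 and -0.15. The 5 members with higher values were Pck1, Slc7a7, Cyp3a11, Gstm3 and Ace, at 0.78, 0.15, 0.08, 0.04 and 0.08, or 0.018, 0.060, 0.17, 0.38 and 0.072 with log2 total.

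Genes for the mitochondrial respiratory chain mostly had lower values. Of 75 nuclear genes, all tested, 70 had lower values after 90 min pulses, 41 of them at an unadjusted p under 0.05, and the median was -0.29. Among all genes of the highest decile by abundance 98.3% were lower, 379 of 1147 at an unadjusted p under 0.05. In 38 of the 75 every 90 min library lay below every DMSO library, beside 700 of all 11462 tested genes (6.11%). Ndufs4, needed for the assembly of complex I, had 178, 188 and 161 CPM after 90 min pulses, against 289, 212 and 217 CPM in DMSO, with DMSO replicate 1 the highest. Its change of -0.43 (SE 0.12) was -0.28 with log2 total and -0.20 in the libraries of like total.

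The list's median was -0.09 with log2 total, where 60 of 75 were lower and 4 of those had an unadjusted p under 0.05, and -0.15 in the libraries of like total, where 65 were lower. At 48 and 72 h it was -0.09 and -0.07. Without DMSO replicate 1 it was -0.19 and 10 of the lower members had an unadjusted p under 0.05, and without 90 min replicate 3 it was -0.24 with 24. The 5 members with higher values were Atp5l (0.79, SE 0.34), Ndufs5 (0.88, SE 0.48), Atp5g2 (0.38), Ndufb2 (0.12) and Cox7c (0.06), and the first 3 averaged under 20 CPM in both groups. Mitochondrially encoded genes had a median of -0.32, with 11 of 14 tested members lower, and -0.06 with log2 total. It was 0.03 with 7 of 14 lower in the libraries of like total, and -0.19 without DMSO replicate 1. Their share of all counts was 0.982, 1.19 and 0.894% after 90 min pulses, against 1.48, 1.20 and 1.08% in DMSO. The 2 ranges overlapped.

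Other abundant machinery stood lower in the same manner. All 8 subunits of the cytosolic chaperonin, which folds actin and tubulin, had lower values, with a median of -0.30. Of these, Cct3, Cct2, Cct6a, Cct7 and Cct8 had an unadjusted p under 0.05. Among all 11462 tested genes 702 (6.12%) were lower at that threshold, and 379 of the 1147 in the highest decile. Cct3 had 200.4, 215 and 212 CPM after 90 min pulses, against 321, 226 and 292 CPM in DMSO, a change of -0.41 (SE 0.13), or -0.20 with log2 total. The list's median was -0.07 with log2 total. Cytosolic ribosomal protein genes had a median of -0.21 with 59 of 77 lower, and proteasome genes -0.19 with 38 of 44 lower. With log2 total these medians were -0.09 and -0.07. In the libraries of like total the chaperonin, ribosomal and proteasome medians were -0.14, -0.15 and -0.08. Without DMSO replicate 1 the chaperonin, ribosomal and proteasome medians were -0.17, -0.07 and -0.13, with 1, 2 and 2 members at an unadjusted p under 0.05 and lower.

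Cholesterol synthesis genes had lower values in 22 of 25 tested members. At an unadjusted p under 0.05 there were 11 lower members, beside 6.12% of all tested genes, 218 of the 1146 in decile 9 by abundance and 379 of the 1147 in the highest decile. The list's median was -0.27. It was -0.07 both with log2 total and in the libraries of like total, and -0.0040 at 48 h. Without DMSO replicate 1 it was -0.20 with 1 member at an unadjusted p under 0.05, and without 90 min replicate 3 -0.18 with 2. Sc5d, an enzyme of the late steps of the pathway, had 169, 206 and 146 CPM after 90 min pulses, against 266, 217 and 210.1 CPM in DMSO. The groups did not overlap, and the change was -0.41 (SE 0.13), or -0.19 with log2 total and -0.07 in the libraries of like total. Nsdhl, another enzyme of these steps, stood at -0.39 (SE 0.15), or -0.24 with log2 total. Mvk and Pmvk, kinases of the mevalonate steps, stood at 0.12 and 0.01, or 0.13 and -0.13 with log2 total.

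Hypoxia and glycolysis genes had a median of -0.17 with 20 of 28 lower, and -0.01 with log2 total and -0.04 without 90 min replicate 3. Ldha, lactate dehydrogenase, had 378, 353 and 294 CPM after 90 min pulses, against 578, 420.4 and 395 CPM in DMSO, a change of -0.43 (SE 0.16), -0.21 with log2 total and -0.22 in the libraries of like total. The list of YAP targets and fetal-like genes, expressed in epithelium under repair, had a median of -0.22 with 19 of 24 lower, -0.19 with log2 total, 0.22 in the libraries of like total and 0.24 without DMSO replicate 2. Unfolded protein and integrated stress genes stood at -0.14, PPAR and fatty acid oxidation genes at -0.15, immediate early and heat shock genes at -0.13, and NF-kB and inflammatory genes at -0.06. Interferon response genes were at 0.14, p53 targets at 0.07, and gastric and Brunner gland genes at 0.23. With log2 total the unfolded protein median was 0.06, with 20 of 25 higher, the PPAR median -0.0078, the immediate early median -0.15, and the p53 and gastric medians -0.068 and -0.070. In the libraries of like total the unfolded protein, PPAR, immediate early and NF-kB medians were 0.09, 0.00024, 0.06 and 0.10. With library totals alone the NF-kB median was 0.03, and without DMSO replicate 1 the interferon, p53 and gastric medians were -0.17, -0.06 and -0.05. In these last 7 lists between 0 and 2 members had an unadjusted p under 0.05 in either direction. Nfkbia, the inhibitor of NF-kB, was among them at -0.33 (SE 0.13), or -0.20 with log2 total.

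**Figure D5:**
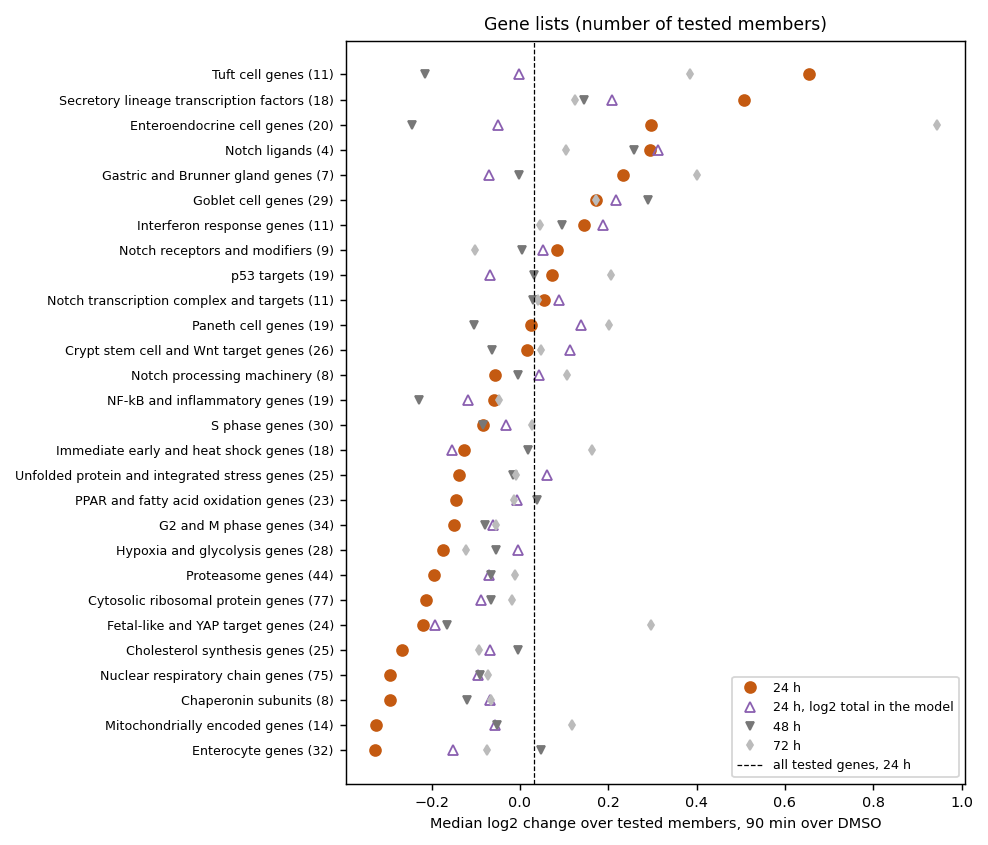
Median log2 change over the tested members of each gene list (x axis), 90 min over DMSO, for 24 h, for 24 h with log2 library total in the model, and for 48 and 72 h; the number of tested members is in brackets and the dashed line is the median of all tested genes at 24 h. The 8 lowest lists, from enterocyte to proteasome genes, lie between -0.33 and -0.19 at 24 h and between -0.19 and -0.06 with the total in the model.

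Most markers of cells from outside the epithelium were at or near 0. Of the fibroblast, immune and endothelial lists, 1, 1 and 2 members could be tested. Among fibroblast genes Col1a2, Col6a1, Col6a2 and Thy1 had 0 counts in all 6 libraries, as did Cd3e, Cd4 and Cd8a of T cells and Cdh5 and Kdr of endothelium. The summed level of the 16 fibroblast genes ran from 13.7 to 24.8 CPM after 90 min pulses and from 7.47 to 17.4 CPM in DMSO. The sum of the 17 immune genes, mostly Cd14, ran from 85.5 to 93.2 CPM after 90 min pulses and from 64.2 to 86.7 CPM in DMSO. The sum of the 10 endothelial genes, led by Esam, ran from 67.6 to 88.2 CPM after 90 min pulses and from 22.8 to 72.2 CPM in DMSO. All 3 ranges overlapped between the groups, and their part in the gene differences was not tested.

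The later durations were compared to ask whether the genes of 24 h showed the same values in other libraries. Organoids of the later durations were also passaged fewer days before the experiment, so duration and time since passage cannot be told apart. At 48 h 0 genes (0%) passed and 175 (1.53%) had an unadjusted p under 0.05, and at 72 h 0 (0%) passed with 114 (0.995%). Of the 1111 genes at 24 h, 877 (78.9%) had the same sign at 48 h and 729 (65.6%) at 72 h, beside 60.6 and 57.0% of all tested genes. The gradient with abundance ran the same way at all durations, so these shares include it. Klf11 stood at 0.11 at 48 h and 0.78 at 72 h, Mcf2l at 0.32 and 0.29, Usp21 at 0.06 and -0.13, and Cdc42 at -0.12 and -0.02. The difference between the change at 24 h and the mean of the later 2 was 1.15 (SE 0.30) for Mkrn2 and 0.65 (SE 0.17) for Usp21. No gene passed the test of that difference (0 of 11462, 0%), and 352 (3.07%) had an unadjusted p under 0.05.

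The longer periods at 24 h share the DMSO libraries with the 90 min comparison, so the values are only set side by side. At 130 min 0 genes (0%) passed against DMSO and 539 (4.7%) had an unadjusted p under 0.05, and at 170 min 0 (0%) passed with 1421 (12.4%). The 130 min libraries held 951978, 1012262 and 656157 counts and the 170 min libraries 841491, 1249292 and 1447330. Hes1 stood at -0.44 for 90 min, -0.11 for 130 min and -0.17 for 170 min. Dll4 stood at 0.64, 0.16 and 0.43, and Klf11 at 1.25, 1.28 and 1.46. A direct comparison of 90 min with the mean of 130 and 170 min, which uses no DMSO library, called 0 genes (0%), with 452 (3.94%) at an unadjusted p under 0.05. In it Hes1 was at -0.30 (SE 0.11) and Usp21 at 0.42 (SE 0.12). DAPT was at 2 µM for the 130 min period, and for 170 min the labels name more than 1 concentration without assigning it to samples, so period and dose cannot be told apart.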

How the data were processed

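The deposited table gives raw molecule counts, collapsed by unique molecular identifier (UMI), for each gene symbol in each library; the values are whole numbers and their totals differ between libraries. Libraries were made by the Sort-seq method per the labels' protocols, and STAR 2.7.8a and UMI-tools 1.1.1 are named in the submitters' processing notes. For the build, annotation and strand setting the entry is: not given in the sources used here. No coordinates are printed. All 36 columns were matched to samples by name, with 0 left over. Totals ran from 482741 to 1447330, and low counts limit the precision of sparse genes.

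Genes were kept with filterByExpr (11462 of 34197) and tested with edgeR 4.0.16 in R 4.3.3: TMM scaling, 1 coefficient for each of 12 groups of 3 libraries, robust quasi-likelihood F tests (24 residual degrees of freedom), two-sided, Benjamini-Hochberg over all tested genes, threshold 0.05. CPM values use TMM-scaled totals. Changes are log2 of 90 min over DMSO with standard errors. The fit shares 1 estimate of spread over all groups. Alternatives were DESeq2 1.42.0, limma 3.58.1 (voom), other scalings and filters, library total as a covariate, thinned counts, replicate blocks and each library left out. The libraries of like total and the medians of deciles under alternatives were added after seeing the data.

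The replicate numbers come from the sample titles. Deviations of same-numbered 90 min and DMSO libraries correlated at 0.14, 0.42 and 0.16 across genes. Libraries of unlike number also reached 0.21 (90 min replicate 1 with DMSO replicate 3) and 0.10 (90 min replicate 3 with DMSO replicate 1). The remaining values were negative. Same numbers were taken as pairs only in the models with pairs or replicate blocks. The labels state no block, so the main fit, its changes and its p-values are unpaired. The members and gene lists were chosen with earlier results of these data known. Named genes were the 10 higher and 10 lower with the smallest p, up to 2 tested members of each list with the smallest p, and a fixed panel. Of the 31 lists, the ribosomal, mitochondrially encoded, respiratory chain and proteasome lists were left out of that choice. Panel genes not described above were Klf4 (0.41, SE 0.22), Cstf2 (-0.43, SE 0.14), Tacc3 (-0.36, SE 0.14) and Sox4 (-0.17, SE 0.13). The calls of the paired model, and other list members given beside small counts or as family members, were named after their values were seen. No set tests were run.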

Additional observations from a re-analysis of the deposited data

How the results depend on the processing

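The number of genes called was 0 in all settings run except the 6 library fit with a replicate block (14) and DESeq2 (1). The counts at an unadjusted p under 0.05, main values 409 higher and 702 lower after 90 min pulses, depended on the setting. They were 249 and 250 on the 6 libraries without the block, 461 and 452 with it, 161 and 147 with the block and log2 total over 36 libraries, 180 and 133 with log2 total, 683 and 312 with upper quartile factors, 709 and 281 with library totals alone, 760 and 556 with no filter, 249 and 649 with DESeq2, and 167 and 236 in the libraries of like total. Leaving out 1 library gave 257 to 556 higher and 188 to 1128 lower. Pairing within duration over 36 libraries changed no call. The named genes below changed sign, none with an adjusted p under 0.05. With block and log2 total, Ifit2 was at -0.30, Cd14 -0.17, Esam -0.061, Lyve1 -0.13, Atoh1 -0.085, Sox4 0.0016 and Tff3 0.27. With log2 total, Vim was at -0.097, Cd14 -0.11, Lyve1 -0.059, Atoh1 -0.080, Sox4 0.049, Lgr5 0.17, Olfm4 0.089 and Tff3 0.077. With thinned counts, Ascl2 was at -0.053, Tff3 0.011 and Chga -0.025. Lgr5 and Tff3 were at 0.051 and 0.022 with upper quartile factors and at 0.063 and 0.035 with library totals, and Lgr5 at 0.044 with voom. In the libraries of like total, Cd44 was at 0.067, Perp 0.025, Ifit2 -0.35, Cct2 0.0019, Vim -0.51, Esam -0.48, Pgc -0.039, Krt7 0.23, Atoh1 -0.35, Sox4 0.0039, Ascl2 -0.0097, Tff3 0.30, Chga -2.06 and Mki67 0.022. Leaving out 1 library gave ranges of -0.047 to 0.24 for Atoh1, -0.12 to 0.23 for Ascl2, -0.29 to 0.10 for Tff3, -0.20 to 0.40 for Lyve1, -0.34 to 0.30 for Lgr5, -0.51 to 0.029 for Olfm4, -0.19 to 0.26 for Muc2, -0.47 to 0.011 for Lyz1, -0.35 to 0.77 for Chga, -0.0025 to 0.16 for Cd14, -0.038 to 1.40 for Vim and -0.54 to 0.12 for Krt7. The cause of these shifts was not tested. Depth limits sparse genes most, and differences within their spread were not detectable here.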
